A study of Homo sapiens with 6 samples.

Results

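The genes of lipid storage and fatty acid use described here are 10 genes chosen by name, PLIN2, PLIN3, ACSL3, LPIN1, DGAT1, DGAT2, PNPLA2, ANGPTL4, CPT1A and CPT2, out of 25369 genes with a value in RNA-Seq of Caki2 cells. Each was found by its symbol. Caki2 is a human cell line of clear cell renal cell carcinoma (ccRCC) without PBRM1 protein, the subunit of the PBAF chromatin remodeling complex that carries its series of bromodomains. The 2 groups were Caki2+Vector, which carries the empty doxycycline-inducible TetO-FUW lentiviral vector, and Caki2+PBRM1, which carries full length PBRM1 in the same vector. Each group had 3 replicates, A, B and C. Both groups were kept in 10% fetal bovine serum, which supplies lipids, with doxycycline in the medium at 2 µg/mL. Vector and drug were therefore shared, and PBRM1 was the labelled difference. Each group is 1 selected stable line, and a difference between the lines that does not come from PBRM1 cannot be told apart from one that does. The study calls the RNA-Seq replicates biological without saying how they were separated, so the p-values measure the spread between these libraries.

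Cells store fatty acids as triglycerides and sterol esters in lipid droplets, which are coated by perilipins. Droplets grow when fatty acids are activated to acyl-CoA and built onto glycerol, and they shrink when lipases release the fatty acids again, which can then enter mitochondria through the carnitine system and be oxidized. The clear cytoplasm that gives ccRCC its name comes from stored lipid and glycogen, and PLIN2 is a well known droplet marker of these tumors.

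Values are normalized counts, that is, reads on a gene divided by a size factor of the library, without division by gene length. The libraries held 7312955 to 10835355 reads on genes. PBRM1 itself stood at 195, 182 and 182 in Caki2+Vector A, B and C and at 2432, 2521 and 2682 in Caki2+PBRM1 A, B and C, and the log2 fold change was 3.76 (standard error 0.056, adjusted p = 3.33e-29), in the direction the labels give. All fold changes are Caki2+PBRM1 over Caki2+Vector on the log2(normalized count + 1) scale. A gene is called upregulated or downregulated where the adjusted p of limma (Benjamini-Hochberg over 13303 genes) was under 0.05. Caki2+Vector A stood apart from the other Caki2+Vector libraries. Chi-square per degree of freedom, where sampling noise alone gives about 1, was 3.09 and 2.84 between it and Caki2+Vector B and C, 1.34 between B and C, and 1.19 to 1.22 among the Caki2+PBRM1 libraries. Results that rest on Caki2+Vector A are therefore given with and without it.

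Of the 10 genes, 4 were upregulated in Caki2+PBRM1 (ANGPTL4, DGAT1, PNPLA2 and PLIN2), 2 were downregulated (LPIN1 and CPT1A), and 4 did not pass the test (PLIN3, ACSL3, DGAT2 and CPT2). All 10 genes passed the filter on low values. Across all genes tested, 29.2% passed the test, 16.2% upward and 13.0% downward. The values of the groups did not overlap for 7 of the 10 genes, 5 higher and 2 lower in Caki2+PBRM1, against 41.7% of all genes tested. The changes were small. The median size of the log2 fold change was 0.17 over the 10 genes and 0.14 over all genes tested, and the signed medians were 0.05 and -0.0036. The upward count changed when a library was left out. It was 2 without Caki2+PBRM1 A and 1 without Caki2+PBRM1 C, where 22.1% and 21.3% of all genes tested were called. It was also 1 with DESeq2 on the recovered reads, which called 16.6% of all genes. Scaling each library by its total gave 1 as well, and there 36.9% of all called genes were upregulated in place of 55.4%. ANGPTL4, LPIN1 and CPT1A passed the test at 0.05 in all 15 other fits run for each gene. Under a threshold of 0.01 in the main fit, LPIN1 and CPT1A passed and ANGPTL4 (adjusted p = 0.0103) did not.

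**Figure D1:**
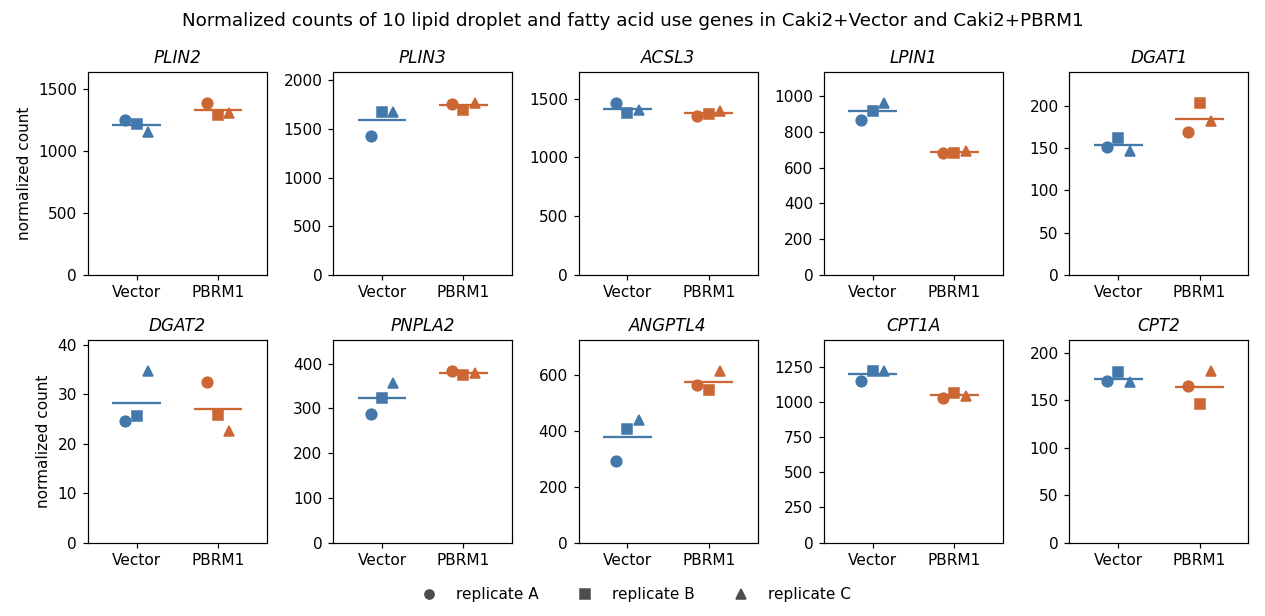
Normalized count (vertical axis, from 0) of each of the 10 genes in the 3 Caki2+Vector and the 3 Caki2+PBRM1 libraries. Points are single libraries with the replicate given by the symbol, and lines are group means. LPIN1 and CPT1A are lower and ANGPTL4 is higher in every Caki2+PBRM1 library, and ANGPTL4 in Caki2+Vector A lies below the other libraries of its group.

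**Figure D2:**
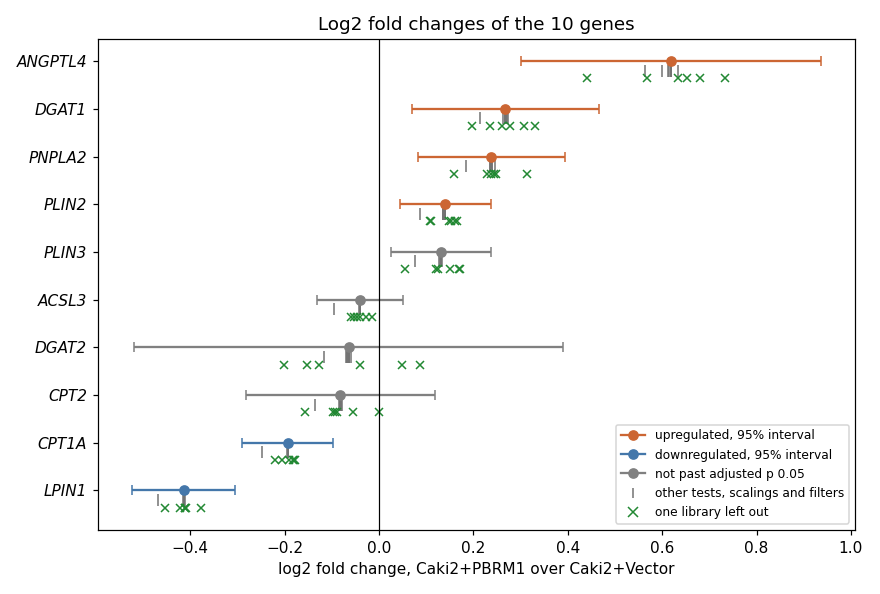
Log2 fold change of each gene with its 95% interval (points and bars), and the same value under other tests, scalings and filters (ticks) and with 1 library left out (crosses). The intervals of ACSL3, DGAT2 and CPT2 span 0, and those of LPIN1 and CPT1A lie wholly below it.

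To show the DNA at the starts of the genes that moved, the 250 bases before the annotated start are given for PLIN2 and ANGPTL4, which were upregulated, and for LPIN1 and CPT1A, which were downregulated. The sequences are those of RefSeq on GRCh38.p14, written 5′ to 3′ on the strand of the gene. RefSeq promoter entries were matched for 8 of the 10 genes, all but DGAT1 and DGAT2. There were 10 entries in all, since LPIN1 has 3 starts. Capitals mark ACGTG and its variant GCGTG on either strand, the core that hypoxia inducible factors bind, and where CACGTG occurs it holds ACGTG on both strands. PLIN2 lies at chr9:19127493-19127742 on the minus strand, ANGPTL4 at chr19:8363905-8364154 on the plus strand, the first LPIN1 start at chr2:11746382-11746631 on the plus strand, and CPT1A at chr11:68844278-68844527 on the minus strand.
PLIN2: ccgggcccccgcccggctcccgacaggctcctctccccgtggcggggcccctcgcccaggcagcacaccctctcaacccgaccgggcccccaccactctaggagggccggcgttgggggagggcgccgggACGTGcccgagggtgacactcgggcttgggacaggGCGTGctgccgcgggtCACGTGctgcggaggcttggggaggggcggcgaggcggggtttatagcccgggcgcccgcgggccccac
ANGPTL4: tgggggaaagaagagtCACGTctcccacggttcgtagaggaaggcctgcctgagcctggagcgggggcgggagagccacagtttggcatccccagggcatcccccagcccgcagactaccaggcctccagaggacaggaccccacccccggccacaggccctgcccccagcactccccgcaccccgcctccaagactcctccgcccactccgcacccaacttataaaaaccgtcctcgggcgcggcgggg
LPIN1: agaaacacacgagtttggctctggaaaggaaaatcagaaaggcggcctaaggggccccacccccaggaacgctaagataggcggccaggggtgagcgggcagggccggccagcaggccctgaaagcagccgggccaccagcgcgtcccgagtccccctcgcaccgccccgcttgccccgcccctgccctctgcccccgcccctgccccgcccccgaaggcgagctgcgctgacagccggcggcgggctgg
CPT1A: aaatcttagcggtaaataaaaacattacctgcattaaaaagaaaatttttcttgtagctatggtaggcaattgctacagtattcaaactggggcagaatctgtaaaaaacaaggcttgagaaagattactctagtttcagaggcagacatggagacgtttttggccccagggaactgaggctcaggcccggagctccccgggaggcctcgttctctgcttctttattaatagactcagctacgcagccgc
The PLIN2 window held 4 matches, which begin 120, 85, 69 and 68 bases before the start, and the last pair is a single CACGTG. The ANGPTL4 window held 1 match, 234 bases before the start. No match was found in the windows of CPT1A, CPT2, PNPLA2 (upregulated, not printed) and the first and second LPIN1 starts. The LPIN1 starts are numbered in the order listed, and counts per gene cannot tell which start these cells use. Counted by window, 5 of the 10 held at least 1 match, PLIN3 with 3, ACSL3 with 1 and the third LPIN1 start with 1 among them, close to the 43.2% of 35116 RefSeq promoter windows of this length that did (18.5% held ACGTG and 32.2% held GCGTG). The longer CACGTG was in 6.34% of all windows. Of the DR1 element that PPAR and RXR bind, only the exact form was searched, AGGTCA repeated with 1 base between the copies. It was in none of the 10 windows and in 0.0171% of all (6 of 35116). An exact match is so rare that its absence from 10 windows does not show whether PPAR sites are present. These letters describe the windows and do not show that a factor binds there.

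Of the droplet coat genes, PLIN2 was slightly higher in Caki2+PBRM1, and PLIN3 did not pass the test. PLIN2 (perilipin 2, GRCh37, as for all gene coordinates here, chr9:19108373-19149288, minus strand) codes for the coat protein found on droplets of most cells. Its normalized counts were 1247, 1215 and 1151 in Caki2+Vector A, B and C and 1385, 1291 and 1306 in Caki2+PBRM1 A, B and C. The groups did not overlap, though the lowest Caki2+PBRM1 library was close to the highest Caki2+Vector library. The means were 1204 ± 49.0 and 1327 ± 50.9 (SD, n = 3 each), and the log2 fold change was 0.14 (standard error 0.048, adjusted p = 0.0257). PLIN2 lost the call in 5 of 15 other fits, with adjusted p = 0.126 without Caki2+Vector C, 0.167 without Caki2+PBRM1 A and 0.0596 without Caki2+PBRM1 C. PLIN3 (perilipin 3, chr19:4838353-4867706, minus strand) codes for a coat protein that moves from the cytosol to new droplets. PLIN3 counts were 1430, 1679 and 1674 in Caki2+Vector and 1760, 1698 and 1770 in Caki2+PBRM1. Caki2+Vector A was the low library, and the other libraries of that group lay just under the lowest Caki2+PBRM1 library. The log2 fold change of PLIN3 was 0.13 (standard error 0.052, adjusted p = 0.0558) and was 0.06 without Caki2+Vector A (adjusted p = 0.289). PLIN3 passed the test in 5 of the other fits, edgeR on recovered reads among them (adjusted p = 0.0418). edgeR called 30.2% of genes and 7 of the 10. The log2 ratio of PLIN2 to PLIN3 counts was -0.40 ± 0.18 in Caki2+Vector and -0.39 ± 0.047 in Caki2+PBRM1, a difference of 0.0088 (exact permutation test, two-sided, p = 1, with 0.1 the smallest p that 3 against 3 allows, so that such a test cannot pass 0.05). This difference was 0.11 without Caki2+Vector A and was below 0 without Caki2+Vector B (-0.023), without Caki2+Vector C (-0.061) and without Caki2+PBRM1 A (-0.015).

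Among the genes of triglyceride synthesis, LPIN1 was clearly lower in Caki2+PBRM1, DGAT1 was higher by a smaller amount, and ACSL3 and DGAT2 did not pass the test. LPIN1 (lipin 1, chr2:11817721-11967535, plus strand) codes for a phosphatidate phosphatase that makes diacylglycerol, and its protein also acts with PPARA and PGC-1 alpha in the nucleus. The LPIN1 counts were 864, 917 and 962 in Caki2+Vector A, B and C. They were 682, 682 and 692 in Caki2+PBRM1 A, B and C. Every Caki2+PBRM1 library was below every Caki2+Vector library, and the gap between the groups was wider than the range within either. The log2 fold change was -0.41 (standard error 0.053, 95% interval -0.52 to -0.30, adjusted p = 4.90e-07), a 0.750-fold level. Over the 15 other fits it ran from -0.47 to -0.38, and the largest adjusted p was 5.12e-05. Of the 10 genes, LPIN1 had the largest change relative to its standard error.

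DGAT1 codes for an endoplasmic reticulum acyltransferase of the last step of triglyceride synthesis. Its counts were 152, 162 and 146 in Caki2+Vector A, B and C and 169, 204 and 182 in Caki2+PBRM1 A, B and C. The groups did not overlap, and Caki2+PBRM1 B was the high library. The log2 fold change of DGAT1 was 0.27 (standard error 0.097, adjusted p = 0.0376). The call was lost in 6 of 15 other fits, with adjusted p = 0.220 without Caki2+PBRM1 B, 0.0873 without Caki2+PBRM1 C and 0.104 without Caki2+Vector C. The DGAT1 transcript shares 137 bases with HSF1 on the other strand, and the sources used here do not say whether counting used strand. By the same annotation, antisense lncRNAs share 502 exon bases with PLIN3, 423 with DGAT2, 332 with PNPLA2 and 919 with CPT2. The protein-coding gene CZIB shares 99 with CPT2 on the other strand, and an lncRNA shares 444 with DGAT1 on the same strand. Reads of these genes carry that uncertainty. DGAT2 (chr11:75470557-75512580, plus strand), the unrelated enzyme of the same step, stood at 24.6, 25.5 and 34.8 in Caki2+Vector and at 32.5, 25.8 and 22.7 in Caki2+PBRM1. The groups overlapped throughout. DGAT2 had the widest interval of the 10 genes, and the log2 fold change was -0.06 with limits of -0.52 and 0.39 (adjusted p = 0.859), on 26 to 30 reads a library, so a change of DGAT1's size was not detectable at this depth. The log2 ratio of DGAT1 to DGAT2 counts was 2.45 ± 0.33 in Caki2+Vector and 2.79 ± 0.36 in Caki2+PBRM1, a difference of 0.34 (exact permutation test, two-sided, p = 0.3). That difference was 0.15 without Caki2+Vector C and 0.54 without Caki2+PBRM1 A. ACSL3 (chr2:223725660-223809357, plus strand) codes for the long-chain acyl-CoA synthetase that sits on nascent droplets. ACSL3 counts were 1465, 1377 and 1401 in Caki2+Vector and 1352, 1374 and 1399 in Caki2+PBRM1. The groups overlapped, and the log2 fold change was -0.04 (95% interval -0.13 to 0.05, adjusted p = 0.543), an interval that leaves out changes of the size seen for LPIN1.

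The 2 genes linked to lipolysis, PNPLA2 for a lipase and ANGPTL4 for an inhibitor of another lipase, were upregulated. ANGPTL4 rose by more than any other of the 10 genes. ANGPTL4 (chr19:8428173-8439254, plus strand) codes for a secreted inhibitor of lipoprotein lipase and is a textbook target of PPARs and of hypoxia. The ANGPTL4 counts were 293, 408 and 439 in Caki2+Vector A, B and C and 563, 548 and 616 in Caki2+PBRM1 A, B and C. The groups did not overlap, and Caki2+Vector A was at 69.1% of the mean of B and C. The log2 fold change was 0.62 (standard error 0.14, adjusted p = 0.0103), a 1.54-fold level with a 95% interval of 1.23 to 1.91. Without Caki2+Vector A the log2 fold change was smaller, 0.44 (standard error 0.062, adjusted p = 2.60e-08). Over all other fits it ran from 0.44 to 0.73. PNPLA2 (chr11:818914-825573, plus strand) codes for adipose triglyceride lipase, which takes the first fatty acid off a triglyceride. PNPLA2 counts were 288, 324 and 357 in Caki2+Vector and 385, 374 and 380 in Caki2+PBRM1. The groups did not overlap, and the Caki2+Vector libraries were spread more widely than the Caki2+PBRM1 libraries. The log2 fold change of PNPLA2 was 0.24 (standard error 0.076, adjusted p = 0.0178). It was 0.16 without Caki2+Vector A (adjusted p = 0.0814), and the call was also lost without Caki2+PBRM1 A (0.0735) and without Caki2+PBRM1 C (0.0608).

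At the entry of fatty acids into mitochondria, CPT1A was downregulated and CPT2 did not pass the test. CPT1A (chr11:68522088-68611878, minus strand) codes for the outer membrane carnitine palmitoyltransferase, the rate-limiting enzyme of long-chain fatty acid oxidation. Its counts were 1152, 1218 and 1224 in Caki2+Vector A, B and C and 1032, 1067 and 1042 in Caki2+PBRM1 A, B and C. All Caki2+PBRM1 libraries were below all Caki2+Vector libraries. The log2 fold change was -0.19 (standard error 0.047, adjusted p = 0.00224), a 0.874-fold level, and it ran from -0.25 to -0.18 over the 15 other fits with a largest adjusted p of 0.0205. CPT2 (chr1:53662464-53679869, plus strand), the inner membrane enzyme that turns acylcarnitine back to acyl-CoA, stood at 170, 180 and 169 in Caki2+Vector and at 165, 146 and 181 in Caki2+PBRM1. The groups overlapped, and Caki2+PBRM1 B and C were the lowest and the highest of the 6 libraries. The log2 fold change of CPT2 was -0.08 (95% interval -0.28 to 0.12, adjusted p = 0.575), which takes in the change of CPT1A. The log2 ratio of CPT1A to CPT2 counts was 2.79 ± 0.056 in Caki2+Vector and 2.68 ± 0.18 in Caki2+PBRM1 (difference -0.11, exact permutation test, two-sided, p = 0.5). The difference was -0.21 without Caki2+PBRM1 B and -0.032 without Caki2+PBRM1 C. With 3 against 3 libraries this permutation test cannot pass 0.05, so whether the 2 enzymes changed unequally was not decided.

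Divided by the length of 1 annotated transcript a gene, the levels of the 10 genes ran over a wide range. In Caki2+Vector the coat genes were highest, with mean normalized counts per kb of 714 for PLIN3 and 635 for PLIN2. ACSL3 followed at 254, CPT1A at 229, ANGPTL4 at 203, LPIN1 at 168 and PNPLA2 at 134. CPT2 at 64.1, DGAT1 at 41.9 and DGAT2 at 11.8 were lowest. Neighbors in this order whose 3 values overlapped were PLIN3 with PLIN2, CPT1A with ANGPTL4, and ANGPTL4 with LPIN1. In Caki2+PBRM1 ANGPTL4 was at 307 per kb, below only the coat genes and above ACSL3 at 247 and CPT1A at 200, and LPIN1 at 126 stood below PNPLA2 at 157. In bulk RNA, fewer cells that express a gene and less RNA per cell cannot be told apart.

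**Figure D3:**
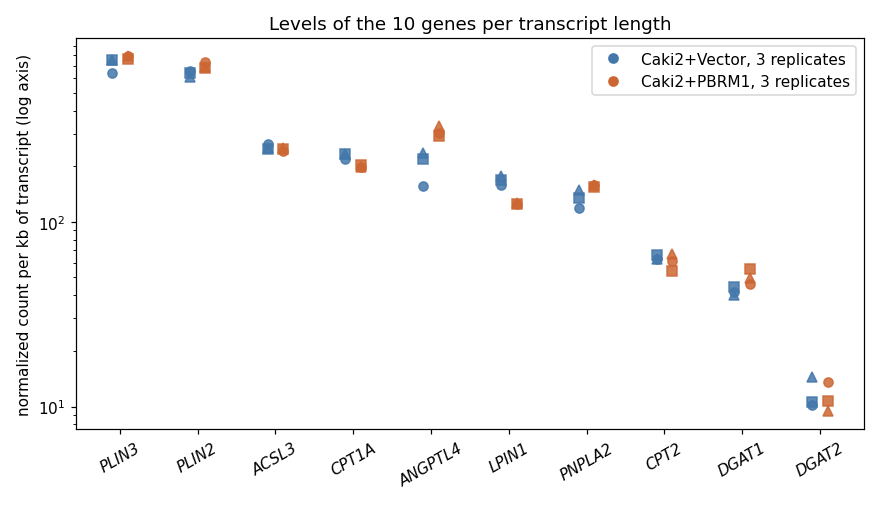
Normalized count per kb of transcript (log axis) of the 10 genes in each library, ordered by the Caki2+Vector mean, with the replicate given by the symbol as in the plot of counts by sample. PLIN3 and PLIN2 are highest and DGAT2 is lowest in both groups, and ANGPTL4 moves above ACSL3 in Caki2+PBRM1.

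The libraries also differed within the groups. Caki2+Vector A was the lowest Caki2+Vector library for 6 of the 10 genes (PLIN3, LPIN1, DGAT2, PNPLA2, ANGPTL4 and CPT1A), and for 37.6% of all genes tested. For ANGPTL4, PNPLA2 and PLIN3, which were higher in Caki2+PBRM1, this library enlarges the difference, and for LPIN1 and CPT1A it narrows it. Without it the log2 fold change was -0.45 for LPIN1, -0.22 for CPT1A and 0.17 for PLIN2, all still called.

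A wider set of 120 genes in 9 classes of lipid storage and fatty acid use was read from the same fit. Of these, 90 passed the filter on low values, ACOX2 only through its Caki2+Vector values. Of the 90, 14 were upregulated and 14 downregulated, ACOX2 among the latter. That is 31.1% of those tested and close to the share of all genes. With reads scaled by each library's total, 8 were upregulated and 19 downregulated. PPARA was upregulated and PPARG was downregulated. The classes are small, and their counts are to be read against the 16.2% of all genes that were upregulated and the 13.0% that were downregulated. DESeq2 on the recovered reads called 16.6% of all genes, against 29.2% with limma, and fewer genes than limma in several classes. It called 2 against 6 of glycerolipid and sterol ester synthesis, 1 against 3 acyl-CoA synthetases, 2 against 5 regulators, 3 against 4 of lipolysis, 3 against 4 of mitochondrial and 2 against 3 of peroxisomal beta-oxidation. Of the 28 called genes, 27 could be tested without Caki2+Vector A and 24 kept the call, and 15 kept it whichever library was left out. The others were less steady, in fits that called 21.3% (without Caki2+PBRM1 C) to 31.5% (without Caki2+Vector A) of all genes. The main fit called 29.2%. Of the 6 fits that leave out a library, AGPAT5, SOAT1, PPARGC1B and RXRA were called in 5, ACSM3, PPAP2B and ACAA2 in 4, LPIN2 in 3, AGPAT3, ECHS1, ACOX2 and NCOR1 in 2, and LIPG in 0.

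**Figure D4:**
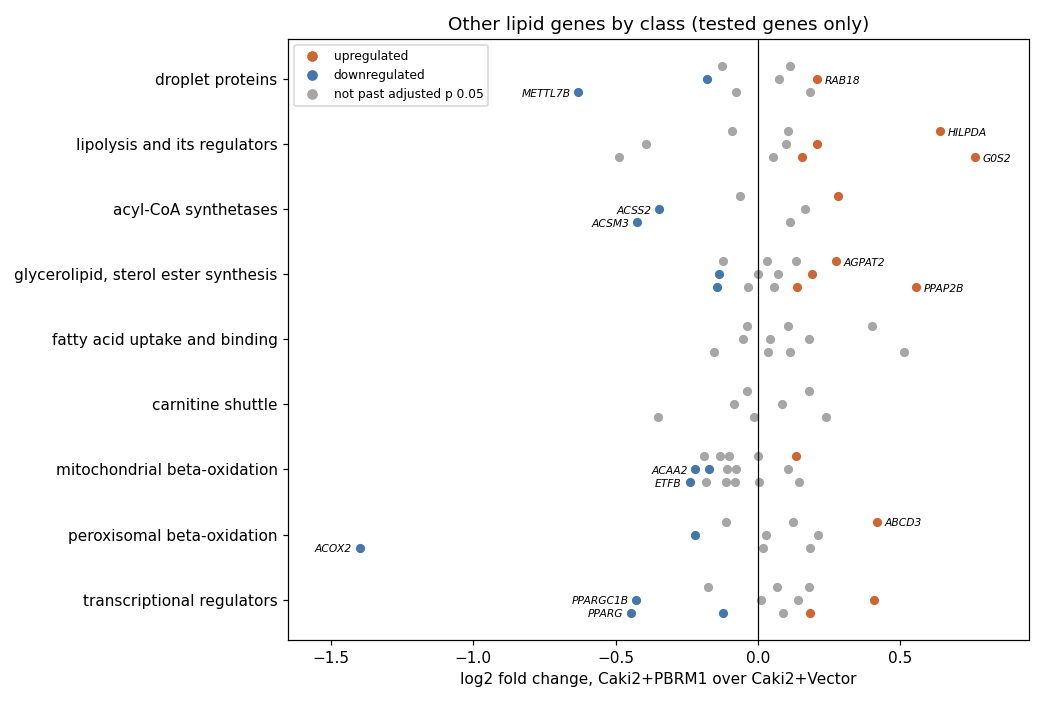
Log2 fold change (horizontal axis) of each tested gene of the 9 wider classes, spread vertically within its class for legibility only. Filled colors mark genes past an adjusted p of 0.05, and up to 2 such genes with the largest changes are named in each class. The 4 called lipolysis genes lie to the right of 0, and no gene of uptake or of the carnitine shuttle was called.

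Among lipolysis genes and their regulators, 4 of 10 tested genes were upregulated and none was downregulated, against 16.2% and 13.0% of all genes. The 2 largest changes were in genes whose products inhibit the lipase that PNPLA2 encodes. G0S2 stood at 36.9, 53.9 and 40.8 in Caki2+Vector and at 70.4, 69.3 and 83.1 in Caki2+PBRM1, and the log2 fold change was 0.76 (standard error 0.16, adjusted p = 6.52e-04). HILPDA, which is induced by hypoxia and sits on droplets, stood at 74.8, 89.8 and 67.1 in Caki2+Vector and at 115, 119 and 126 in Caki2+PBRM1 (0.64, standard error 0.13, adjusted p = 2.76e-04). Neither gene overlapped between groups, and both were called whichever library was left out. MGLL, the monoacylglycerol lipase, rose by 0.15 on the log2 scale (adjusted p = 0.00479), and LIPG, an endothelial type lipase, by 0.21 (adjusted p = 0.0481, and 0.0654 without Caki2+Vector A). LIPG lost its call whichever library was left out. The log2 fold change was above 0 for 7 of the 10 tested genes. LIPE (-0.49, adjusted p = 0.209) and PNPLA3 (-0.39, adjusted p = 0.157) did not pass the test, though both were lower in every Caki2+PBRM1 library. These changes were larger in size than those of MGLL and LIPG, and LIPE and PNPLA3 were named after their values were seen.

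Among other droplet proteins, 1 of 8 tested genes was upregulated and 2 were downregulated, and DESeq2 also called 3. METTL7B, a methyltransferase found on droplets, fell from 212 ± 24.3 to 136 ± 7.63 (log2 fold change -0.63, standard error 0.0997, adjusted p = 1.24e-05), and HSD17B11 fell from 1178 ± 32.7 to 1040 ± 9.43 (-0.18, adjusted p = 0.00414). RAB18, a small GTPase of the droplet surface, rose from 1027 ± 47.7 to 1186 ± 13.4 (0.21, adjusted p = 0.00136). The other 9 listed genes, PLIN1 and CIDEC among them, were under the filter.

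Of 13 tested genes of glycerolipid and sterol ester synthesis, 4 were upregulated and 2 downregulated. PPAP2B, a lipid phosphate phosphatase, rose from 50.7 ± 10.3 to 74.1 ± 7.05 (0.55, standard error 0.16, adjusted p = 0.00989, and 0.38 with adjusted p = 0.0645 without Caki2+Vector A). The lysophosphatidic acid acyltransferase genes AGPAT2, AGPAT5 and AGPAT3 rose by 0.27, 0.19 and 0.14, of which AGPAT3 lost its call without Caki2+Vector A (adjusted p = 0.0502). LPIN2, the paralog of LPIN1, was downregulated as LPIN1 was but by less, with 956, 935 and 935 in Caki2+Vector and 860, 848 and 850 in Caki2+PBRM1 (-0.14, standard error 0.049, adjusted p = 0.0269). SOAT1, which makes cholesterol esters, fell by 0.14 (adjusted p = 0.0104). Among 6 tested acyl-CoA synthetase genes, ACSL1 was upregulated (510 ± 16.5 to 619 ± 5.86, log2 fold change 0.28, adjusted p = 4.11e-04), and ACSM3 (-0.43, adjusted p = 0.00941) and the acetate enzyme gene ACSS2 (-0.35, adjusted p = 0.00805) were downregulated.

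Of 10 tested genes of fatty acid uptake and binding, limma called 0, with 4 at an unadjusted p under 0.05 (SLC27A5, SLC27A3, VLDLR and ACBD3, each higher in all Caki2+PBRM1 libraries, named after their values were seen), and edgeR and DESeq2 called 0. Of 7 tested genes of the carnitine shuttle besides CPT1A and CPT2, limma, edgeR and DESeq2 called 0, with 1 at an unadjusted p under 0.05, the neuronal paralog CPT1C (65.2 ± 9.91 to 50.6 ± 4.18, adjusted p = 0.0962).

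Of 16 tested genes of mitochondrial beta-oxidation, 3 were downregulated and 1 upregulated, which is 25% called against 29.2% of all genes, while edgeR called 6. A log2 fold change above 0 was found for 5 of the 16, and for 49.4% of all genes. ETFB, a subunit of the electron transfer flavoprotein that takes electrons from acyl-CoA dehydrogenases, fell from 1084 ± 58.0 to 917 ± 32.0 (-0.24, standard error 0.051, adjusted p = 5.93e-04). HADHA, the alpha subunit of the trifunctional protein, fell from 3073 ± 196 to 2723 ± 48.0 (-0.17, standard error 0.042, adjusted p = 0.00229), and ACAA2, the last thiolase, fell by 0.22 (adjusted p = 0.0101). ECHS1, the short-chain enoyl-CoA hydratase, rose by 0.13 (adjusted p = 0.0352). In peroxisomes, ABCD3, a transporter of acyl-CoA esters, stood at 477, 420 and 445 in Caki2+Vector and 621, 606 and 566 in Caki2+PBRM1 (0.42, standard error 0.064, adjusted p = 7.37e-06). HSD17B4, the bifunctional enzyme, fell by 0.22 (adjusted p = 0.00127), and the low-count gene ACOX2 stood at 11.4, 12.3 and 12.0 in Caki2+Vector and 1.08, 6.22 and 6.71 in Caki2+PBRM1 (adjusted p = 0.0171). ACOX2 passed the filter only through the 3 Caki2+Vector libraries, each just above 10. It could therefore enter the test only as lower in Caki2+PBRM1, and its call is no support for a change. It did not pass the filter without Caki2+Vector A.

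Of 11 regulators of fatty acid genes, 2 were upregulated and 3 downregulated. PPARA, the nuclear receptor known for driving fatty acid oxidation genes, stood at 350, 348 and 355 in Caki2+Vector and at 442, 492 and 464 in Caki2+PBRM1, and the log2 fold change was 0.41 (standard error 0.066, adjusted p = 2.08e-05). PPARG, the receptor known for driving lipid storage genes, stood at 524, 545 and 472 in Caki2+Vector and at 364, 384 and 381 in Caki2+PBRM1, and the log2 fold change was -0.45 (standard error 0.067, adjusted p = 5.85e-06). The groups of both genes were well apart, and both were called whichever library was left out. PPARGC1B, a coactivator of oxidative genes, fell from 109 ± 4.17 to 80.8 ± 10.6 (-0.43, adjusted p = 0.0108), RXRA, the partner of the PPARs, rose by 0.18 (adjusted p = 0.0119), and the corepressor gene NCOR1 fell by 0.12 (adjusted p = 0.0441).

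Markers were read beside these results. PAX8, the renal lineage factor, stood at 1888 to 2190 in all libraries, and 12 renal and ccRCC markers summed to 34943 to 36054 in the Caki2+Vector libraries and 35349 to 36165 in the others. CDH1 was at 0 to 1.89 and CA9, a hypoxia marker of ccRCC, at 0 to 15.2, so these 2 were near absent. The sum hides changes of single markers, as VIM, KRT8 and CDH2 make up most of it. NDUFA4L2, a hypoxia-induced ccRCC marker, was at 71.0 to 125 in the Caki2+Vector libraries and 367 to 430 in the others (log2 fold change 1.94, standard error 0.20, adjusted p = 9.94e-05), and CA9 was at 0 to 2.83 and 6.71 to 15.2. Of the 10 renal and ccRCC markers tested, 3 were upregulated (NDUFA4L2, CDH16 and VIM) and 3 downregulated (KRT7, KRT18 and KRT8). The part of these changes in those of the 10 lipid genes was not tested. Of 7 adipocyte markers, ADIPOQ, LEP, CIDEA and FABP4 were at 0 in every library, and the list summed to at most 10.4 in Caki2+Vector (lowest 3.78) and at most 16.0 in Caki2+PBRM1 (lowest 10.1), below the counts of DGAT2, the lowest of the 10 genes. Of 5 hepatocyte markers, 4 were at 0 and only CPS1 was counted, with 17.0 to 27.5 in the Caki2+Vector libraries and 63.8 to 75.8 in the others. The 5 leukocyte markers summed to 2002 to 2146 and 1902 to 1939, nearly all of it CD68, a lysosomal protein gene of many cells, with CD3E at 0 and PTPRC at 0 to 5.68. The 3 endothelial markers summed to 0.947 to 3.78 and 3.36 to 6.22, with CDH5 at 0, and the 5 fibroblast markers to 92.3 to 103 and 89.8 to 116. The part of CPS1 and CD68, whose sums did not overlap between groups, in the differences of the 10 genes was not tested.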

How the data were processed

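Poly(A) RNA of 3 Caki2+Vector and 3 Caki2+PBRM1 replicates was sequenced by the authors as paired reads. The authors discarded adapters, low-quality reads and rRNA, used STAR for alignment (hg19) and obtained gene counts from htseq-count with a UCSC annotation (the submitters' processing notes also name DESeq and DESeq2). The deposited values are a normalized signal, normalized counts of reads per gene divided by a size factor, which was 0.834 to 1.191. Within 0.01 of a read, 100% of the values were whole multiples of 1 read, so reads were recovered for depth and for count tests.

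The unit led to the moderated test of limma 3.58.1 (R 4.3.3, eBayes with its trend and robust options) on log2(normalized count + 1), for genes with at least 10 in at least 3 samples. Each SE and interval (95%) is that of the moderated test. Alternatives were edgeR 4.0.16, DESeq2 1.42.0 and voom on recovered reads, scaling by totals, pseudocounts of 0.5 and 4, other filters, an adjusted p under 0.01, the replicate letter as a block, and leaving out each library. The fits were run on simulated data in which no library stood apart as Caki2+Vector A did. That run does not show how they behave with such a library. Coordinates, transcript lengths (1 representative transcript a gene) and overlaps are those of GENCODE on GRCh37, and promoters those of RefSeq on GRCh38.p14. Motifs were searched on both strands with Python 3.11.15.

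The 10 genes, the wider classes and the marker lists were chosen with earlier results of these data known. Named were the 10 genes, PBRM1, and in each class the called genes among its 4 largest changes. Called genes beyond these 4 were named after their values were seen. Genes below the filter were too shallow for a test. The labels give no batch or date. All columns of the files were used. Tumor, protein and lipid data were not analysed here.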

Additional observations from a re-analysis of the deposited data

How the results depend on the processing

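Of the 10 genes, ANGPTL4, LPIN1 and CPT1A kept direction and call, and ACSL3 and CPT2 stayed uncalled, in all 15 other fits at a threshold of 0.05. At an adjusted p under 0.01 in the main fit, LPIN1 and CPT1A kept the call and ANGPTL4 lost it. The number upregulated, 4 of 10, was 1 with DESeq2, 1 with scaling by totals and 0 at an adjusted p under 0.01, and ran from 1 to 5 with a library left out. The number downregulated stayed at 2 in these fits. In the wider classes, 14 upregulated genes became 8 with DESeq2 and 8 with scaling by totals, and 9 to 16 with a library left out (9 without Caki2+PBRM1 A). The 14 downregulated became 8 with DESeq2, 8 at an adjusted p under 0.01 and 19 with scaling by totals. Over all genes, the main test called 3886 (29.2%), DESeq2 2425 (16.6%) and an adjusted p under 0.01 2521 (19%). Fits with a library left out called 2798 (21.3%) to 4154 (31.5%). Scaling by totals moved the median of all genes to -0.058. The log2 ratio of PLIN2 to PLIN3, a difference near 0, turned to -0.023, -0.061 and -0.015 without Caki2+Vector B, Caki2+Vector C and Caki2+PBRM1 A, and ran from -0.061 to 0.111. With a library left out, the ratio difference of CPT1A to CPT2 ran from -0.21 to -0.032 and that of DGAT1 to DGAT2 from 0.15 to 0.54. DGAT2, also near 0, turned to 0.087 without Caki2+Vector C and 0.049 without Caki2+PBRM1 C, and ran from -0.20 to 0.087 with a library left out. The causes were not tested. Deviations of same-lettered libraries had correlations across genes of -0.0077 to 0.0138, against -0.0243 to 0.0173 for unlike letters. This gave no sign of pairing by letter. It cannot exclude pairing, as the Caki2+PBRM1 libraries differed by little more than sampling noise. With the replicate block, 4107 genes and 7 of the 10 genes were called, PLIN3 added at an adjusted p of 0.0329, and the 3 log2 ratios had the same differences. Counting depth limits DGAT2 most.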
